A study of Nannochloropsis oceanica with 6 samples.

Results

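NO29G01700, NO16G02820 and NO10G01290 are genes for moving cations across membranes in the marine microalga Nannochloropsis oceanica, which lays down oil when nitrogen is short. They are 3 of the 10569 genes in the expression tables, and all 3 passed the filter on low values that left 9736 genes for testing. They were chosen by their estimated counts in these same libraries, so their changes are given as a description with no test. All cells were of the strain IMET1 with no genetic change named. The C0 libraries came from log-phase cells at day 0, grown with nitrate under continuous light of 80 µmol m-2 s-1. For N1 and N2, cells were washed and held in medium lacking nitrogen for 1 and 2 days, at 50 µmol m-2 s-1. Loss of nitrogen, lower light, washing and time since transfer cannot be told apart between C0 and the other groups. Each group had 2 libraries of poly-A RNA, with totals between 4875888 and 6523021 estimated counts. The group of each library was taken from its sample title. The study's methods speak of 3 replicate samples for each condition, and its results of 2 for RNA sequencing. The study calls the libraries of a group biological replicates, but the sample labels name no separate cultures, so what the spread behind each p-value covers is not known from them.

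Potassium, calcium and manganese ions cross membranes by different means. A channel is a pore through which ions run down their gradient, and 2-pore potassium channels of plants (TPK) lie mostly in the vacuole membrane and can be opened by calcium. P-type ATPases are pumps that spend ATP and take up its phosphate during each cycle. Calcium pumps of this family keep the calcium of the cytosol low, so that a brief rise can act as a signal. The P5 group of these pumps includes PDR2 of Arabidopsis, which sits in the endoplasmic reticulum. PDR2 is known for root growth under phosphate shortage, and its relative in yeast and human cells pulls wrongly inserted proteins out of the membrane.

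The names rest on sequence likeness recorded in the deposited tables. NO29G01700 was described as a 2-pore potassium channel after rice proteins, as an outward-rectifying potassium channel after barley, and with the terms plant-type vacuole membrane and calcium ion binding. NO16G02820 was described as a calcium-transporting ATPase after a protein of Bacillus subtilis, while its best match in the larger protein collection was a sodium P-type ATPase of the moss Physcomitrella patens. The ion that it carries is therefore not settled by its annotation. NO10G01290 was described as a probable manganese-transporting ATPase after Arabidopsis PDR2, and as a P5-type cation pump of no stated ion.

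The potassium channel gene NO29G01700 was near 0 in the C0 libraries and among the more abundant transcripts after 1 day without nitrogen. Its level was 0.60 and 0.57 FPKM (fragments per kilobase of transcript, also scaled by library total) in C0, 351.92 and 321.18 FPKM in N1, and 124.13 and 126.83 FPKM in N2. No library of one group came near those of another, and the order was N1, then N2, then C0. It stood above 1.13% of the genes tested in C0, above 96.9% in N1 and above 90.6% in N2. The fitted log2 fold change of counts was 8.94 ± 0.12 (SE, n = 2 per group) for N1 against C0, a 491-fold higher count, and 7.53 ± 0.13 for N2 against C0. Both of these SE are too small for so few C0 reads, as set out below. Between N1 and N2 the count fell by 1.41 ± 0.055 on the log2 scale, to a level 2.65-fold lower.

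The size of that change rests on few C0 reads. The 2 C0 libraries held 7.18 and 6.11 estimated counts, against 3345.97 and 2828.69 in N1 and 1598.9 and 1579.04 in N2. The ratio of pooled counts was 501 for N1 against C0, with an exact 95% interval from 293 to 941, and 188 for N2 against C0, with an interval from 110 to 354. These intervals cover counting error only, yet they are wider than the SE of the fitted changes from C0 would give. The abundance-weighted transcript length of the gene was 2677 and 2339 bases in C0, then 2109 and 2098 in N1, and 2227 and 2222 in N2, so the mix of its isoforms was estimated differently in each group.

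NO16G02820, the P-type pump described as calcium-transporting, showed the opposite course and lost most of its transcript within the first day. Its level was 248.84 and 253.73 FPKM in C0, 11.60 and 8.05 FPKM in N1, and 12.36 and 11.84 FPKM in N2. The C0 libraries lay far above all 4 others. It stood above 95.8% of the genes tested in C0, above 19.1% in N1 and above 18.9% in N2. The log2 fold change from C0 was -4.62 ± 0.094 in N1, which is 24.5-fold lower, and -4.41 ± 0.090 in N2, which is 21.2-fold lower. The N1 and N2 levels were not separated by their spread. On the scale of CPM (counts scaled to a common library size by TMM) N1 had 54.1 and 37.8 and N2 had 54.3 and 52.4. The difference of N2 from N1 was 0.21 ± 0.11, and it was -0.065 without N1 replicate 2.

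NO10G01290, described as manganese-transporting, was listed at 0 in C0 and was highest on day 2. Its level was 1.17 and 1.58 FPKM in N1 and 10.14 and 10.54 FPKM in N2. The groups did not overlap, and the order was N2, then N1, then C0. Even in N2 the level was modest, above 15.9% of the genes tested. The estimated counts were 24.97 and 31.51 in N1 and 273.16 and 276.53 in N2. Against a floor of 3 counts in each C0 library, the count was at least 9.97-fold higher in N1 and at least 70.6-fold higher in N2. The log2 fold change of N2 against N1 was 2.81 ± 0.20, a 7.03-fold higher count.

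**Figure D1:**
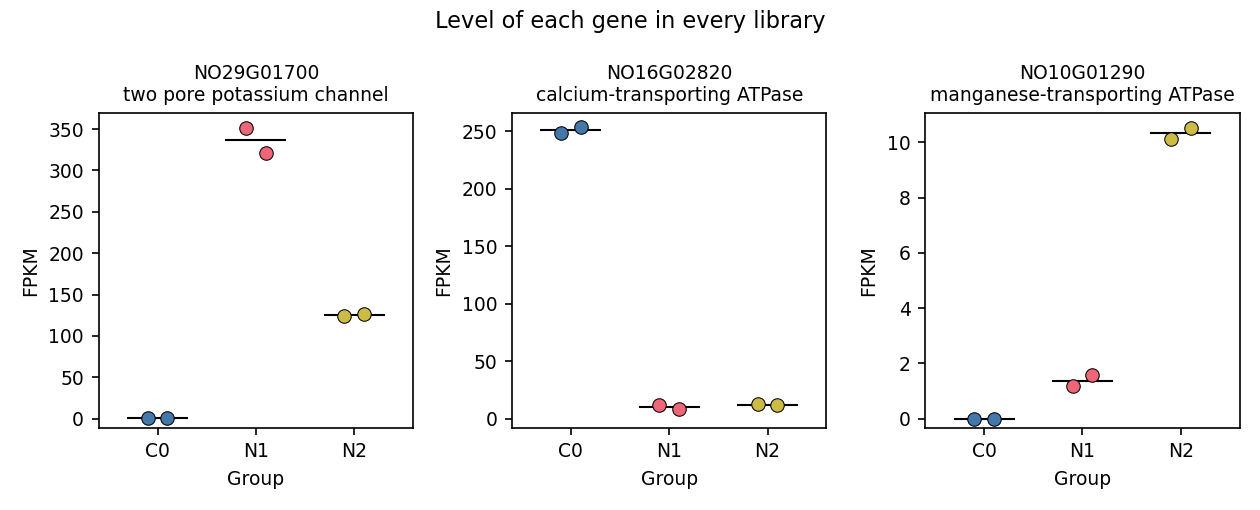
Level of the 3 genes in FPKM (vertical axes, linear and different in each panel) in the 2 libraries (points) of each group, with the group mean as a bar. NO29G01700 peaked in N1 at 351.92 and 321.18 FPKM, NO16G02820 was high in C0 alone, and NO10G01290 reached 10.14 and 10.54 FPKM in N2.

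Each of the 3 genes had estimated counts with decimals, and so did the neighbouring genes named below as sharing their reads. Counting tools that divide reads between transcripts give such values where a read could belong to more than 1 gene. Of 2566 genes with decimals in at least 1 library, 1604 (62.5%) gave a whole sum, to a tolerance of 0.005 for each gene added, with the next or previous identifier in all 6 libraries. NO29G01700 and NO10G01290 were among them, while NO16G02820 gave a whole sum only with 2 neighbours, so how the reads were divided bears on each value above. Their counts were therefore also added to those of the genes that shared their reads, a step chosen after the data were seen.

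NO29G01700 gave a whole sum with NO29G01710, a neighbour also described as a 2-pore potassium channel. The neighbour's level was 0.16 and 0.73 FPKM in C0, 203 and 281 FPKM in N1, and 98.2 and 119 FPKM in N2. It followed the course of NO29G01700, with log2 fold changes over C0 of 8.08 ± 0.35 in N1 (edgeR adjusted p = 4.08e-11) and 6.97 ± 0.41 in N2 (adjusted p = 1.50e-09), and a change of -1.11 ± 0.14 between N1 and N2 (adjusted p = 1.02e-05). The C0 counts of the neighbour were so few that its pooled ratio for N1 against C0, 281, had an exact interval from 120 to 867. That interval is also wider than the SE would give. The pair together held 8 and 10 reads in the C0 libraries, 3911 and 3598 in those of N1, and 2005 and 2023 in those of N2. The change of the pair did not depend on the division, since the pair exceeded C0 by 8.76 on the log2 scale in N1 and by 7.41 in N2, and changed by -1.35 between those days. NO29G01700 took between 78.1% and 85.6% of the pair's reads in the N1 and N2 libraries.

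NO16G02820 gave a whole sum only with both NO16G02830, a further calcium-transporting ATPase, and NO16G02810, a homolog of YIPF1, a membrane protein of the Golgi. The 3 genes together held 9034 and 9322 reads in C0, then 975 and 960 in N1, and 2237 and 2056 in N2. Relative to C0 the sum changed by -3.17 on the log2 scale in N1 and by -2.47 in N2, so the fall was smaller for the sum, and N2 exceeded N1 by 0.70. NO16G02820 took 62.6% and 63.9% of these reads in C0, then 28.0% and 18.5% in N1, and 16.4% and 16.7% in N2. The 2 pump genes without the YIPF1 homolog came to 1267 ± 12.5 CPM (SD, n = 2) in C0, 82.4 ± 0.357 CPM in N1 and 136 ± 1.31 CPM in N2.

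The neighbouring pump and the YIPF1 homolog fell as well, by less. NO16G02830 had 135.7 and 135.3 CPM in C0, 28.0 and 44.9 CPM in N1, and 80.9 and 84.6 CPM in N2. Its log2 fold change from C0 was -1.91 ± 0.13 in N1 (adjusted p = 5.72e-09) and -0.71 ± 0.11 in N2 (adjusted p = 3.35e-05), and it rose again by 1.20 ± 0.14 from N1 to N2 (adjusted p = 3.71e-06). NO16G02810 had log2 fold changes of -2.16 ± 0.065 (adjusted p = 6.25e-13), -1.48 ± 0.060 (adjusted p = 2.37e-11) and 0.68 ± 0.068 (adjusted p = 1.09e-06) in the same order. Both partners regained part of their level on day 2, while the difference of NO16G02820 between N1 and N2 lay within the spread of its N1 libraries.

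For NO10G01290 the share of reads changed far more than the sum with its neighbour. It gave a whole sum with NO10G01280, also described as a probable manganese-transporting ATPase after PDR2. The pair held 255 and 255 CPM in C0, 256 and 259 CPM in N1, and 239 and 232 CPM in N2. The sum was almost level: relative to C0 it differed by 0.013 ± 0.051 on the log2 scale in N1 and by -0.12 ± 0.051 in N2, and N2 differed from N1 by -0.13 ± 0.051. The share given to NO10G01290 was 1.93% (exact 95% interval from 1.26% to 2.85%) and 2.59% (1.81% to 3.70%) in N1, and 16.9% (15.1% to 18.8%) and 18.2% (16.3% to 20.3%) in N2. Such intervals cover counting error only and leave out any error in how the reads were divided. In C0 the share was 0 of 1285 and 0 of 1333 reads, with exact 95% intervals reaching up to 0.287% and 0.276%. NO10G01280 itself had 255.0 and 255.2 CPM in C0, 250.9 and 252.2 CPM in N1, and 198.2 and 189.6 CPM in N2. It was lower in N2 than in C0 by a log2 fold change of -0.40 ± 0.053 (adjusted p = 1.01e-05), and its difference of N1 from C0, -0.020 ± 0.053, did not pass the test (adjusted p = 0.746). Whether the 2 identifiers are separate genes or parts of 1 transcription unit was not tested, and the bounds given for NO10G01290 hold for the counts as divided.

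**Figure D2:**
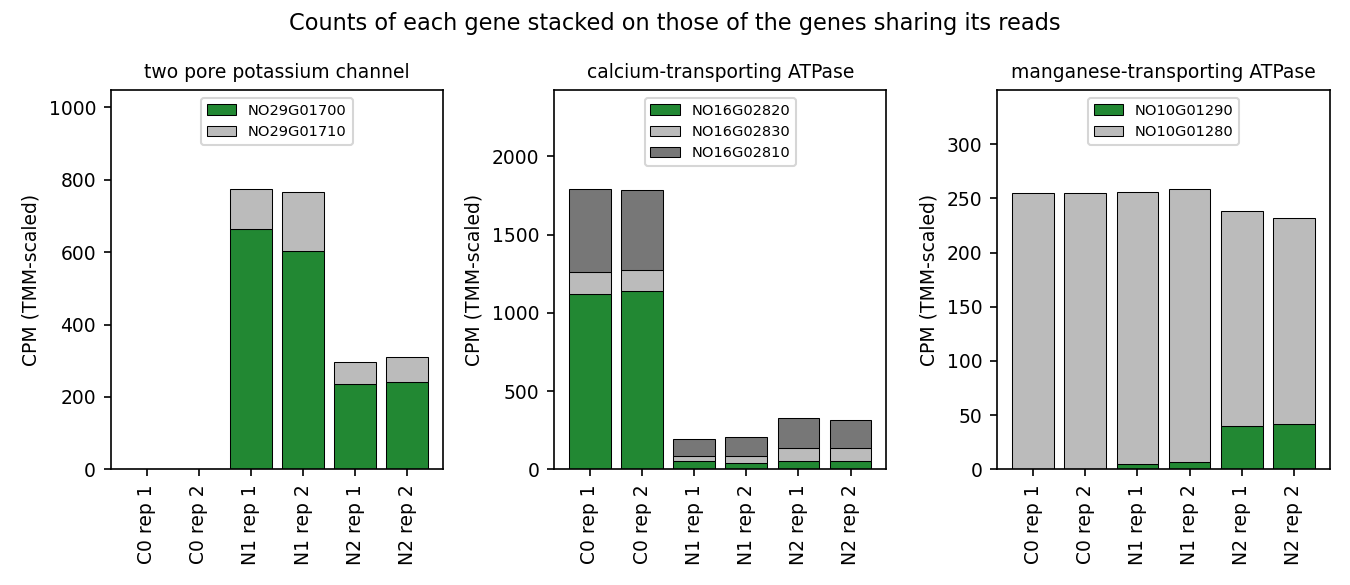
CPM (TMM-scaled counts, vertical axes from 0) of each gene (green) stacked with those of the genes that shared its reads (grey), in each of the 6 libraries. The stack fell to between 193 and 330 CPM outside C0 for NO16G02820 and its partners, whereas the stack of NO10G01290 and NO10G01280 stayed between 232 and 259 CPM in every library.

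The remaining neighbours by identifier changed by less than the 3 genes, and some in the other direction. Beside the potassium channels, NO29G01690, which has no description, rose by a log2 fold change of 1.10 ± 0.075 in N1 (adjusted p = 5.76e-09) and was 0.59 ± 0.075 above C0 in N2 (adjusted p = 6.54e-06). NO29G01680, described as a chromatin condensation factor, differed from C0 by 0.15 ± 0.078 in N1 and did not pass the test (adjusted p = 0.108). NO29G01720, a subunit of the chaperonin that folds actin and tubulin, fell by 1.46 ± 0.13 on the log2 scale in N1 (adjusted p = 8.74e-08). Beside the pump on the opposite course, NO16G02840, a homolog of a subunit of the SMC5/6 complex for DNA repair, rose by 1.38 ± 0.24 in N1 (adjusted p = 0.000148), and NO16G02800, with no description, fell by 0.58 ± 0.17 (adjusted p = 0.00785). Beside NO10G01290, the mitochondrial carrier NO10G01270 rose by 1.24 ± 0.18 in N2 against C0 (adjusted p = 1.86e-05), whereas NO10G01300, a protein-glutamate methyltransferase homolog, fell by 0.90 ± 0.071 (adjusted p = 3.60e-08) and NO10G01310, with no description, fell by 1.42 ± 0.054 (adjusted p = 1.21e-11).

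The described genes with the most similar course over the 6 libraries were found by the root mean square difference of centred log2 CPM, given with no test. For NO29G01700 the nearest was NO17G00440 (0.504), described as a probable proton ATPase 1B, a P-type pump for protons. Its level was 11.43 and 10.65 FPKM in C0 and rose to 1391 ± 0.594 FPKM (SD, n = 2) in N1 before 595 ± 8.71 FPKM in N2. Next came NO02G03220 (0.513), described as cytochrome P450 97B3 of the chloroplast, which was listed at 0 FPKM in C0 and had 71.5 ± 0.693 FPKM in N1 and 50.0 ± 2.51 FPKM in N2, and then the neighbour NO29G01710 (0.719).

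For NO16G02820 the nearest gene was NO13G00050 (0.361), a homolog of the intraflagellar transport protein 140, with 24.1 ± 1.68 FPKM in C0, 1.13 ± 0.134 in N1 and 1.56 ± 0.113 in N2. The other 2 were CBL-interacting protein kinases, enzymes that in plants are switched on by calcineurin B-like calcium sensors. NO30G00580 (0.478) had 143 ± 8.81 FPKM in C0, 9.69 ± 1.91 in N1 and 12.0 ± 0.106 in N2. NO25G01890 (0.501) was far more abundant, with 2329 ± 7.07 FPKM in C0, 182 ± 3.70 in N1 and 235 ± 3.68 in N2. For NO10G01290 the nearest were NO05G03790 (0.329), a cytoplasmic malate dehydrogenase listed at 0 FPKM in C0 with 6.41 ± 1.39 FPKM in N1 and 34.3 ± 2.88 in N2, NO24G02300 (0.517), described as a molybdenum cofactor biosynthesis protein, and NO17G01780 (0.798), described as a homolog of the ubiquitin ligase subunit RMD5.

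The other potassium channels and transporters moved in both directions. Of 14 such genes other than NO29G01700, 9 were higher and 3 lower in N1 than in C0 at an adjusted p below 0.05, with a median log2 fold change of 0.40, where 33.3% of all genes tested were higher and 37.1% lower and the median was -0.044. In N2 against C0, 6 were higher and 3 lower, against 35.0% higher and 34.9% lower of all genes. In N2 against N1, 4 were higher and 7 lower, against 29.4% higher and 28.5% lower of all genes. The higher genes besides NO29G01710 were led by NO05G00130, described as a voltage-gated potassium channel subunit, with 8.47 and 9.24 FPKM in C0, then 202 and 209 in N1, and 68.0 and 70.5 in N2. Its log2 fold change over C0 was 4.59 ± 0.075 in N1 (adjusted p = 6.75e-16), and N2 differed from N1 by -1.65 ± 0.054 (adjusted p = 1.33e-11). NO19G00470, a potassium-proton antiporter, rose from 1.93 ± 0.481 FPKM (SD, n = 2) to 15.6 ± 0.502 in N1 and was at 5.84 ± 0.127 in N2.

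The 3 genes of this list that were lower in N1 stood higher again in N2. NO19G01500, a homolog of the calcium-activated potassium channel slo-1, had 41.4 and 44.3 FPKM in C0, then 12.8 and 13.6 in N1, and 30.8 and 32.0 in N2. Its log2 fold change from C0 was -1.60 ± 0.074 in N1 (adjusted p = 6.79e-11), and N2 differed from N1 by 1.16 ± 0.074 (adjusted p = 1.20e-08). NO24G01950, a voltage-gated channel homolog, went from 35.3 ± 0.495 FPKM to 14.0 ± 0.417 and 21.4 ± 1.07, and NO11G00370, a sodium-activated potassium channel homolog, from 5.05 ± 0.622 to 2.56 ± 0.566 and 4.82 ± 0.226. The potassium channel list thus held genes that peaked in N1, like NO29G01700, and genes that were lowest in N1.

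**Figure D3:**
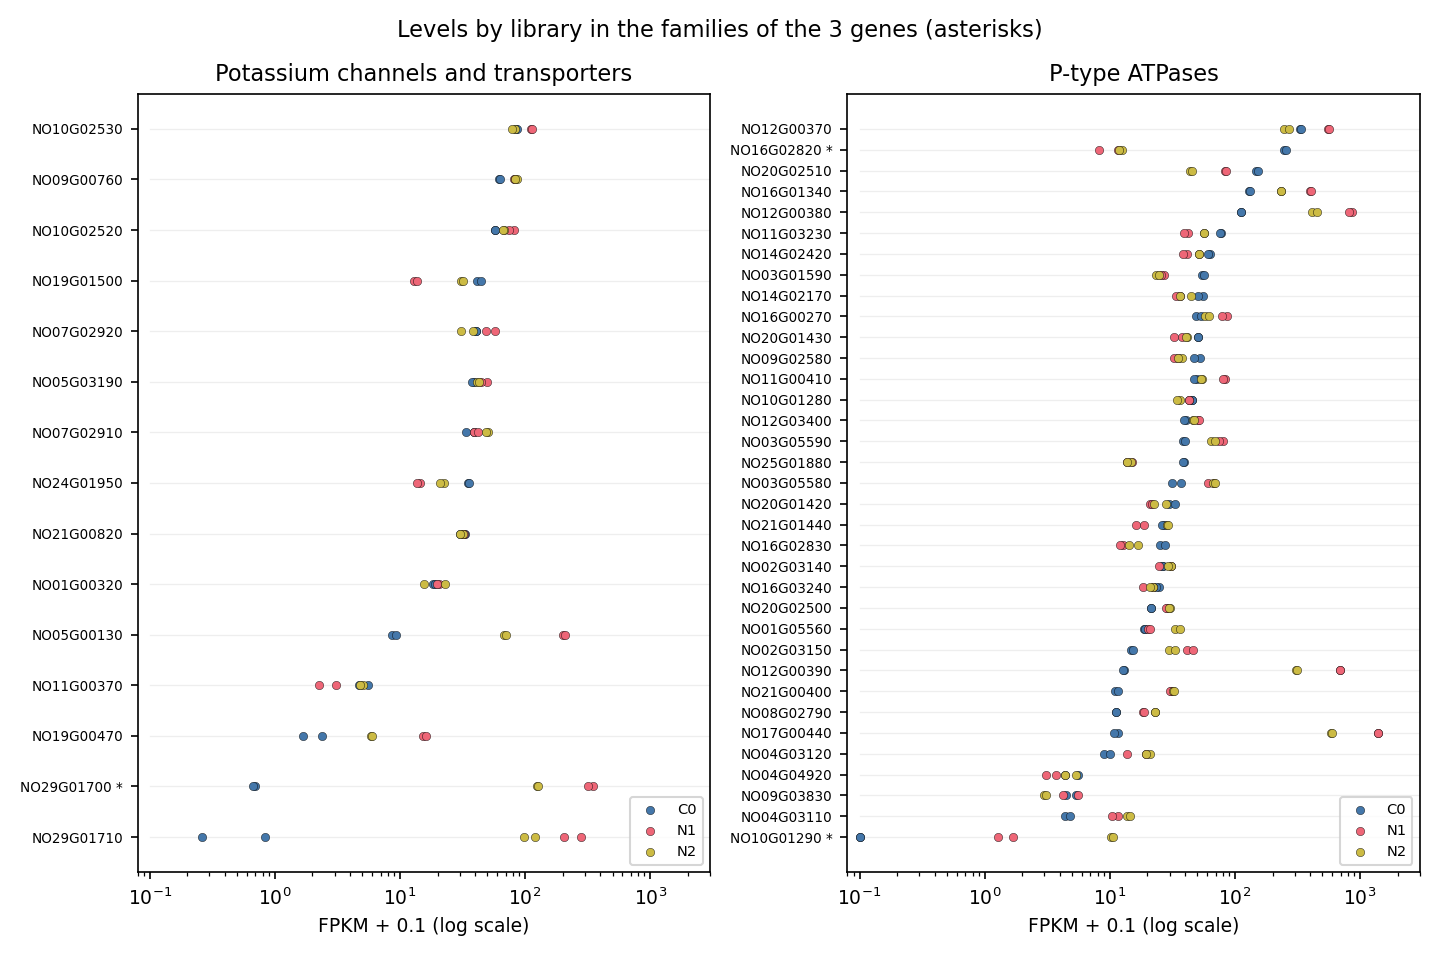
Level of every potassium channel or transporter gene (left) and P-type ATPase gene (right) in the 6 libraries, as FPKM plus 0.1 on a log axis, with genes ordered by their C0 mean and coloured by group. In the left panel NO29G01700 and NO29G01710 were lowest in C0 and NO29G01700 was highest in N1. In the right panel NO16G02820 was the second highest in C0, and NO16G01340, described as a potassium-transporting ATPase, had 395 and 403 FPKM in N1, above NO29G01700.

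Channels for other ions were led by 2 genes that rose and stayed high. NO07G04580, described as a 2-pore calcium channel, which in plants lies in the vacuole membrane, had 28.0 and 30.4 FPKM in C0, then 386 and 378 in N1, and 354 and 343 in N2, with a log2 fold change of 3.78 ± 0.047 for N1 against C0 (adjusted p = 2.92e-17). Its counts had decimals too. NO01G00340, a chloride channel homolog, rose from 14.1 ± 1.51 to 93.7 ± 6.48 and 105 ± 0.559 FPKM. Of the 12 channels in this list, 3 were higher and 6 lower in N1 (of all genes, 33.3% and 37.1%), and 5 were higher and 6 lower in N2 (of all genes, 35.0% and 34.9%), each against C0. The lower ones included NO27G00640, a sodium channel homolog, which had 14.4 ± 1.39 FPKM in C0, 5.07 ± 0.410 in N1 and 11.3 ± 0.962 in N2.

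Of the 12 other calcium-transporting ATPases, 5 were higher and 5 lower in N1, and likewise 5 and 5 in N2, each against C0, or 41.7% each way. These shares lay near those of all genes (33.3% and 37.1% in N1, 35.0% and 34.9% in N2), and the median log2 fold changes were 0.16 and 0.14. After NO16G02830, the next largest fall in N1 among those named was that of NO20G02510, at 146 and 152 FPKM in C0, then 83.8 and 84.1 in N1, and 44.0 and 45.4 in N2. Its log2 fold change from C0 was -0.78 ± 0.050 in N1 (adjusted p = 3.01e-09) and -1.79 ± 0.052 in N2 (adjusted p = 5.98e-13), so unlike NO16G02820 it went on falling on day 2. The largest rise was that of NO02G03150, a homolog of the calcium pump PAT1 of the slime mould Dictyostelium, from 14.9 ± 0.332 FPKM to 43.6 ± 3.45 in N1 and 31.6 ± 2.43 in N2. The adjacent NO03G05580 and NO03G05590 were also higher in N1 than in C0, by 0.96 ± 0.095 (adjusted p = 3.84e-07) and 1.05 ± 0.072 (adjusted p = 6.59e-09).

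Calcium can also be moved by exchangers that spend the gradient of another ion. Of the 2 described here, NO04G00790, a vacuolar calcium ion transporter homolog, rose from 26.5 ± 2.14 FPKM in C0 to 109 ± 13.8 in N1 and was at 50.7 ± 4.95 in N2 (log2 fold change of N1 against C0 2.21 ± 0.10, adjusted p = 8.44e-11). NO11G02840, a homolog of the sodium/calcium exchanger NCL, fell from 106 ± 3.66 FPKM to 41.8 ± 2.21 and 28.9 ± 0.198 (log2 fold change of N2 against C0 -1.89 ± 0.074, adjusted p = 1.51e-11).

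Among the 21 other P-type ATPases, 11 were higher and 7 lower in N1 (of all genes, 33.3% and 37.1%), and 10 were higher and 9 lower in N2 (of all genes, 35.0% and 34.9%), each against C0. Among those lower on both days, NO09G02580 is described both as a ubiquitin hydrolase and as a homolog of the vacuolar cation pump YPK9 of yeast. NO14G02420, with the same PDR2 description as NO10G01290, was also lower on both days. Its log2 fold changes from C0 were -0.58 ± 0.050 in N1 (adjusted p = 9.00e-08) and -0.30 ± 0.049 in N2 (adjusted p = 7.20e-05). NO04G04920, described likewise, did not pass the test in N1 or N2 (adjusted p = 0.0590 and 0.628). Counts of both had decimals. The 4 genes described as proton pumps rose in N1 by very different amounts. NO17G00440, the gene nearest in course to NO29G01700, exceeded C0 by 7.03 ± 0.038 on the log2 scale in N1 (adjusted p = 4.83e-21) and by 5.72 ± 0.037 in N2 (adjusted p = 2.34e-20), with a change of -1.31 ± 0.028 between N1 and N2 (adjusted p = 5.15e-13). NO12G00390, described as proton ATPase 1A, had 12.8 and 12.6 FPKM in C0, then 686 and 697 in N1, and 309 and 312 in N2. Its neighbours by identifier, also described as proton ATPase 1A, were far higher in C0. NO12G00380 went from 111 ± 0.813 FPKM to 845 ± 34.3 and 430 ± 29.3, and NO12G00370 from 335 ± 3.57 to 563 ± 7.25 and 258 ± 18.4, with a log2 fold change of 0.80 ± 0.041 in N1 (adjusted p = 2.21e-10) and -0.41 ± 0.041 in N2 (adjusted p = 4.59e-07). Counts of all 3 genes of this run had decimals. Pumps described for heavy metals went both ways: NO25G01880, a cadmium and zinc pump homolog, fell from 38.8 ± 0.156 FPKM to 14.3 ± 0.771 and 14.1 ± 0.778, and NO11G03230, a zinc pump homolog, from 76.2 ± 0.658 to 40.6 ± 2.38 and 56.7 ± 0.318. NO16G00270, described as a zinc and cadmium resistance protein, rose by 0.72 in N1 (adjusted p = 6.62e-08) and by 0.24 in N2 (adjusted p = 0.00288), and NO16G03240, a copper pump homolog, had -0.20 in both (adjusted p = 0.0474 and 0.0332), each as a log2 fold change against C0.

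Exchangers of sodium or potassium for protons, some of which were also in the potassium list, were more often called higher than lower. Of 15 genes, 10 were higher and 2 lower in N1 (of all genes, 33.3% and 37.1%), and 10 were higher and 1 lower in N2 (of all genes, 35.0% and 34.9%), each against C0. NO03G02820, described as sodium/hydrogen exchanger 8, had 13.9 and 15.3 FPKM in C0, then 646 and 635 in N1, and 330 and 334 in N2. Its log2 fold change from C0 was 5.51 ± 0.045 in N1 (adjusted p = 2.91e-19), and N2 differed from N1 by -1.04 ± 0.036 (adjusted p = 1.98e-11), which is the order of groups also seen for NO29G01700. NO16G01350, described as sodium/hydrogen exchanger 7, rose from 14.1 ± 2.25 to 69.7 ± 6.19 and 52.8 ± 1.52 FPKM.

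The proton pumps of the vacuole type charge the membrane in which plant 2-pore potassium channels lie. Of 13 genes described as vacuolar or other proton pumps, 11 were higher and 2 lower in N1 than in C0. Their median log2 fold change was 0.65 (of all genes, 33.3% and 37.1%, median -0.044). The 11 higher genes were all described as subunits of the V-type pump, so they do not count as 11 separate pumps. In N2 against C0, 9 were higher and 2 lower, with a median of 0.20 (of all genes, 35.0% and 34.9%, median 0.0089). In N2 against N1, 2 were higher and 10 lower, with a median of -0.37 (of all genes, 29.4% and 28.5%, median 0.0046). Subunit G of the V-type pump (NO04G03350) had 216 and 221 FPKM in C0, then 456 and 492 in N1, and 235 and 242 in N2. The 2 genes that were lower in N1 were both pumps that use pyrophosphate in place of ATP. NO13G01250 had 508 and 547 FPKM in C0, then 265 and 248 in N1, and 461 and 453 in N2, with a log2 fold change of -1.02 ± 0.039 for N1 against C0 (adjusted p = 9.96e-12), and NO19G01860 is the other.

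Of the 22 tested carriers of manganese and other metals that are not P-type pumps, 11 were higher and 8 lower in N1 (of all genes, 33.3% and 37.1%), and 11 were higher and 6 lower in N2 (of all genes, 35.0% and 34.9%), each against C0. NO04G04820, a homolog of nramp1, whose family takes up manganese and iron, had 11.6 and 12.1 FPKM in C0, then 40.0 and 43.4 in N1, and 35.5 and 38.0 in N2, with a log2 fold change of 1.87 ± 0.11 for N1 against C0 (adjusted p = 1.50e-09). The zinc transporter homolog NO04G03710 rose from 3.71 ± 0.290 to 27.6 ± 1.39 FPKM in N1 and was at 10.2 ± 0.453 in N2. NO11G00750, described as a magnesium transporter, fell from 22.3 ± 0.240 to 5.31 ± 0.495 and 10.5 ± 0.629 FPKM, and the copper chaperone homolog NO26G00420 from 371 ± 73.5 to 101 ± 15.5 and 77.6 ± 15.5 FPKM.

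Of 29 calcium sensors and kinases that read them, 11 were higher and 11 lower in N1 than in C0, 37.9% each way and near the shares of all genes (33.3% and 37.1%). The search behind this list did not take in the CBL-interacting kinases NO30G00580 and NO25G01890. Both were lower in N1 than in C0, and they were named above for their likeness to NO16G02820, so the counts do not cover all such kinases. In N2, 15 were higher and 9 lower than in C0 (of all genes, 35.0% and 34.9%), and 16 were higher and 5 lower than in N1 (of all genes, 29.4% and 28.5%). Calmodulin (NO27G00950) had 145 and 140 FPKM in C0, then 177 and 191 in N1, and 231 and 226 in N2, a modest rise (log2 fold change of N2 against C0 0.66 ± 0.053, adjusted p = 4.41e-08). The 3 named kinases described as calmodulin-dependent with the largest rises included NO11G01760, from 13.3 ± 0.955 to 83.2 ± 4.43 and 83.0 ± 0.177 FPKM, and NO06G02770, from 11.4 ± 0.431 to 71.9 ± 5.21 and 40.6 ± 1.78 FPKM. The calcium-binding protein NO02G00020 fell from 106 ± 0.198 to 21.0 ± 3.59 and 33.7 ± 3.57 FPKM, and the caltractin homolog NO08G02210, of a family found at basal bodies, from 117 ± 0.311 to 26.8 ± 0.940 and 59.1 ± 1.17 FPKM.

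**Figure D4:**
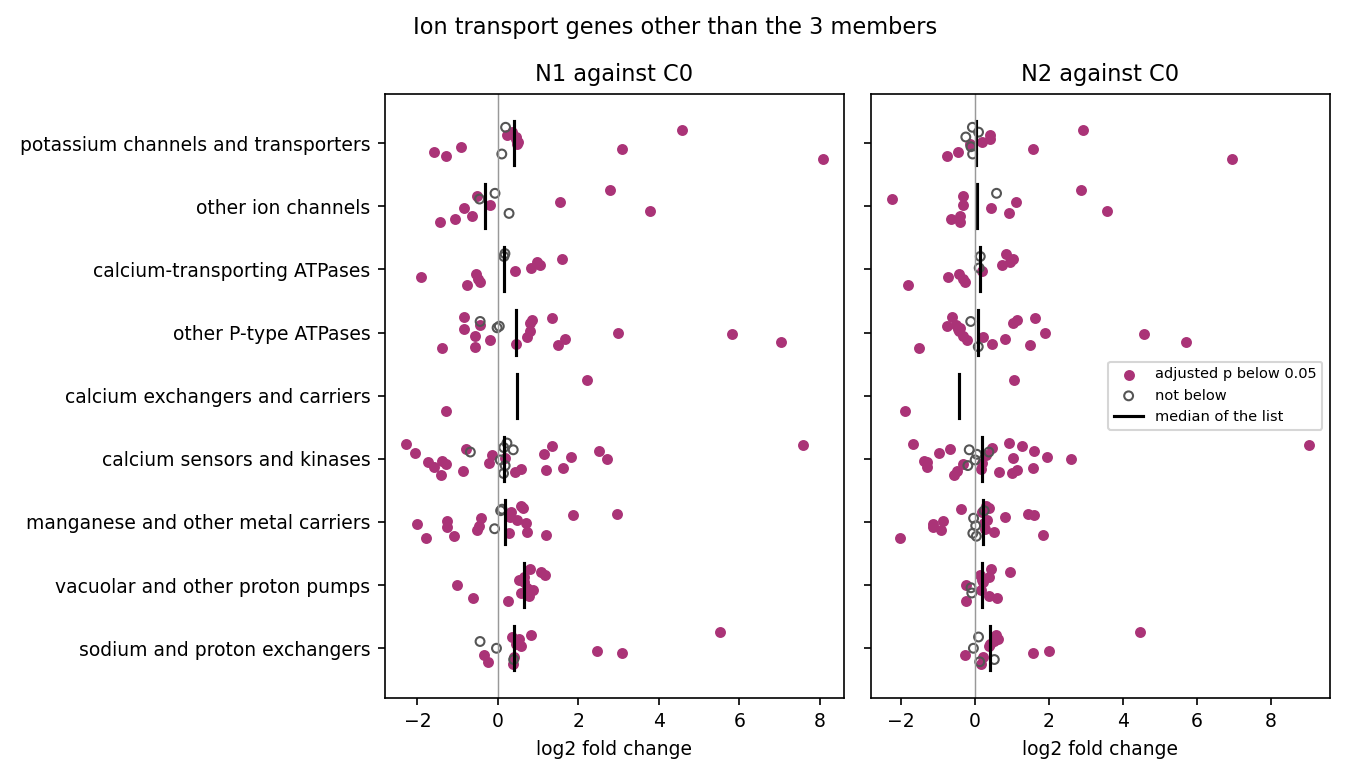
Log2 fold change (horizontal axes) of each tested ion transport gene other than the 3 described genes, for N1 against C0 and N2 against C0, with 1 row per list. Filled points had an edgeR adjusted p below 0.05 and bars mark list medians, of which the highest in N1 was that of the vacuolar and other proton pumps at 0.65.

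Over all 9 lists, 69 of 137 tested genes were higher and 45 lower in N1 than in C0 (50.4% and 32.8%, against 33.3% and 37.1% of all genes). In N2 against C0, 70 were higher and 42 lower (51.1% and 30.7%, against 35.0% and 34.9%), and in N2 against N1, 43 were higher and 52 lower (31.4% and 38.0%, against 29.4% and 28.5%). The comparisons with C0 share its 2 libraries. The split of N2 against N1 over all genes depended on scaling, with 2861 higher and 2772 lower under TMM and 3444 higher and 2195 lower when scaled by library totals alone. Of the 138 list genes, 38 had counts with decimals, and the effect of divided reads was examined for the 3 described genes only. NO03G03330, an EF-hand protein homolog that was singled out after its values were seen as the farthest point among the calcium sensors, was listed at 0 in both C0 libraries, so its fitted fold change is no bound. As a check of the labels, the nitrate transporter gene NO14G02450 had 205 and 202 CPM in C0, then 7598 and 7612 in N1, and 11298 and 11320 in N2.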

How the data were processed

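Per the study's methods and the submitters' notes, Trim Galore, STAR, Picard, featureCounts, StringTie and edgeR were used, with the IMET1 genome as the reference. No versions are given in the sources used here. The deposited estimated counts per gene, given with decimals by the authors, were rounded, since the design had assumed whole counts. The deposited TPM and FPKM values are counts that the authors scaled by transcript length and library total. TPM was not used further. Effective lengths were also deposited. The authors' comparison tables hold log2 fold changes, p-values and false discovery rates, which were not used.

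Genes with at least 1 CPM in 2 or more of the 6 libraries (9736) were scaled by TMM and compared in R 4.3.3 by the two-sided quasi-likelihood test of edgeR (version 4.0.16) with a term for group. Adjusted p-values are Benjamini-Hochberg values over all genes tested, with a threshold of 0.05. The printed SE is approximate, taken as the size of the log2 fold change over the root of F. It was too small where a group held few reads, as in C0 for NO29G01700 and NO29G01710. The script was tested on simulated data. Strand was not used in library preparation, so reads of overlapping genes cannot be assigned by strand.

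The 3 genes and the 9 lists (searches in the Swiss-Prot descriptions) were chosen with earlier results of these data known, and the search for P-type pumps was narrowed after descriptions were read, to drop an aquaporin. Named were all members of lists with few genes. In longer lists those eligible were the 2 largest rises and falls among called genes with a mean of at least 10 CPM in each comparison, and the most abundant member. Also named were the next 2 identifiers on each side of the 3 genes and the 3 described genes nearest in course, with at least 10 CPM (pseudocount of 1). Outside this rule, NO03G03330, NO09G02580, NO12G00370, NO12G00380, NO16G00270, NO16G01340 and NO16G03240 were named after their values were seen. So were NO04G04920, NO09G02390, NO10G02530, NO14G01690 and NO14G02420. Alternatives were DESeq2 1.42.0 and its size factors, library totals alone, other filters, a replicate block, only the libraries compared, each library left out, and summed counts.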

Additional observations from a re-analysis of the deposited data

Results flagged for a closer look

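Among the list genes picked by the naming rule, 3 were called in opposite directions on the 2 days, each against the same C0 libraries. In each of these 3 the difference of N2 from N1 itself passed the edgeR test. Outside the rule, NO12G00370 was also called in opposite directions (0.80 in N1 and -0.41 in N2). Other list genes were as well, with smaller changes, among them NO10G02530, NO09G02390 and NO14G01690. NO04G01250, described as a 2-pore calcium channel, had log2 fold changes of -0.85 in N1 and 0.45 in N2 against C0 (N2 against N1, adjusted p = 8.63e-06). Its N2 call ended with DESeq2 (adjusted p = 0.104), without C0 replicate 2 (0.0699) and without N2 replicate 1 (0.0767). NO19G01860, described as a pyrophosphate-energized proton pump, had -0.63 in N1 and 0.60 in N2 (adjusted p = 1.08e-08). NO20G02230, described as subunit a of the V-type proton ATPase, had 0.26 in N1 and -0.22 in N2 (adjusted p = 3.39e-08).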

How the results depend on the processing

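Adding the counts of the genes that shared reads, chosen after seeing the data, moved the most values. For N1 against C0 the log2 fold change became 8.76 for NO29G01700, -3.17 for NO16G02820 and 0.013 for NO10G01290. For N2 against C0 it became -2.47 for NO16G02820 and -0.12 for NO10G01290, and for N2 against N1 0.70 for NO16G02820 and -0.13 for NO10G01290. Scaled by library totals alone, NO16G02820 had -4.37 for N2 against C0. With 1 library left out at a time, N2 against N1 ranged from -0.065 to 0.50 for NO16G02820 and from -1.52 to -1.34 for NO29G01700, both lowest without N1 replicate 2. The other 272 values stayed within the replicate spread or 1.5 times the count. They cover the 3 genes and the counts of calls over all genes and over all lists together. Of the counts of calls within single lists, 684 stayed within 1.5 times the count, 17 were weaker and 1 was stronger. Both exchangers counted as lower in N1, NO22G02090 and NO28G00890, lost that call under the DESeq2 Wald test (adjusted p = 0.0506 and 0.202). Of the tests of single list genes, 34 lost and 9 gained significance under an alternative, with no change of direction among called genes.

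Replicate numbers are shared by the groups, but no label says that they mark a culture, and deviations of same-numbered libraries correlated by -0.0216, 0.0131 and -0.0464. With a replicate block, NO29G01700 had 8.94 for N1 against C0, and 69 list genes were higher and 45 lower. With 13 estimated counts for NO29G01700 in C0 and none for NO10G01290, depth limits the size of both changes.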
